A study of Arabidopsis thaliana with 12 samples.

Results

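Salicylate (SA) and N-hydroxypipecolate (NHP) are small immune signals of plants, and 10 genes that make them or switch on their making were followed across the root libraries of 4 Arabidopsis thaliana genotypes. The members were taken by gene identifier: the regulators SARD1 (AT1G73805), CBP60g (AT5G26920), EDS1 (AT3G48090) and PAD4 (AT3G52430), the SA genes ICS1 (AT1G74710), EDS5 (AT4G39030) and PBS3 (AT5G13320), and the NHP genes ALD1 (AT2G13810), SARD4 (AT5G52810) and FMO1 (AT1G19250). They were chosen with earlier results of these data known. All 10 were found among the 37884 genes of the table, and all 10 passed the minimum for testing, which was a mean of 10 normalized counts per library. PBS3 reached that mean only through ERF115-SRDX, since its mean over the other 9 libraries was 9.27 normalized counts.

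Messenger RNA came from roots of seedlings aged 4 days, with 3 libraries for each genotype. Line ERF115OX carries 35S:ERF115, line ERF114OX carries 35S:ERF114, and line ERF115-SRDX carries 35S:ERF115-SRDX, each set against wild-type Col-0 (WT). The viral 35S promoter drives expression in most plant cells, so none of the lines limits the factor to the cells in which it normally acts. ERF115 and ERF114 are related AP2/ERF transcription factors, and the SRDX peptide turns a factor it is joined to into a repressor. The series asks which genes act downstream of both factors in roots. Neither the number of independent transgenic lines nor the growth of replicates apart from each other is stated in the labels. A limma p-value here sets a difference against the spread between libraries of a genotype, 3 each, pooled over all 4 genotypes. That spread may be technical in origin.

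As background, plants make most immune SA from chorismate in the plastid. ICS1 converts chorismate to isochorismate, EDS5 carries isochorismate out of the plastid, and PBS3 joins it to glutamate in a product that then breaks down to SA. NHP, the mobile signal of systemic acquired resistance, is made from lysine: ALD1 removes the amino group, SARD4 reduces the product to pipecolate, and FMO1 hydroxylates pipecolate. CBP60g and SARD1 are transcription factors of the calmodulin-binding protein family that activate genes of both routes, and EDS1 and PAD4 are lipase-like proteins that pair to relay signals from immune receptors. These routes have been studied mainly in leaves under attack.

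The transgenes went with the titles. ERF115 transcript lay between 34638 and 38360.1 normalized counts in ERF115OX and between 83518 and 88807 in ERF115-SRDX, against 4.86, 23.4 and 561 in WT. ERF114 lay between 44417 and 47807 in ERF114OX, against 10.7 to 35.0 in WT, although the genotype label of those libraries also carries the name ERF115OX. Depth was 47242114 to 48343410 reads per library. All 11 root markers were above 0 in every library, with a mean log2 value of 9.92 to 10.26. Transcripts of 18 photosynthetic genes, markers of green tissue, were also present in every library and differed between them, with a mean log2 value of 13.60 to 14.16 in ERF115OX, 12.38 to 14.29 in ERF114OX, 7.94, 12.76 and 8.31 in ERF115-SRDX libraries 1, 2 and 3, and 14.51 to 15.56 in WT. ERF114OX 1 (12.38) and ERF115-SRDX 2 (12.76) stood apart within their genotypes. In bulk RNA, a change in the number of expressing cells and a change in transcript per cell cannot be told apart.

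Roots expressing ERF115-SRDX carried more transcript of 9 of the 10 genes than WT, and less of ALD1. The rises ran from 1.29-fold for SARD1 to 102-fold for FMO1 as ratios of means, and in all 10 genes the 3 ERF115-SRDX libraries did not overlap the 3 WT libraries (9 above, as in 29.2% of all tested genes, and 1 below, as in 30.4%). PBS3, which had passed the minimum for testing through this line, is among the 9. Both overexpressors went the other way for FMO1, PBS3 and CBP60g, and they too carried less ALD1. With 1 set of WT libraries in all 3 comparisons, the changes of a gene against WT share their control values.

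By limma, at a Benjamini-Hochberg adjusted p under 0.05 over the 23375 genes tested, 9 members rose and 1 fell in ERF115-SRDX against WT, where 23.4% of all tested genes rose and 26.6% fell. PBS3 is among the 9 and had passed the minimum through this line, and 8 rose without it. As the members were chosen with earlier results of these data known, their counts beside shares of all genes are no test of the set. In ERF115OX 2 rose and 5 fell, where 16.4% of all genes rose and 15.7% fell. In ERF114OX 1 rose and 5 fell, where 17.5% rose and 19.6% fell. Of all genes called in ERF114OX, 47.2% were higher, a share that was 58.0% under quantile normalization, 38.8% after TMM scaling and 38.2% in edgeR. All libraries of ERF115OX lay above those of WT for 2 members and below for 6 (22.5% and 22.4% of all genes), and those of ERF114OX above for 2 and below for 5 (24.1% and 25.8%). The median log2 change of the 10, PBS3 included, was 1.59 in ERF115-SRDX, -0.32 in ERF115OX and -0.23 in ERF114OX. Medians over all tested genes, in the same order, were -0.001, -0.001 and -0.014.

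**Figure D1:**
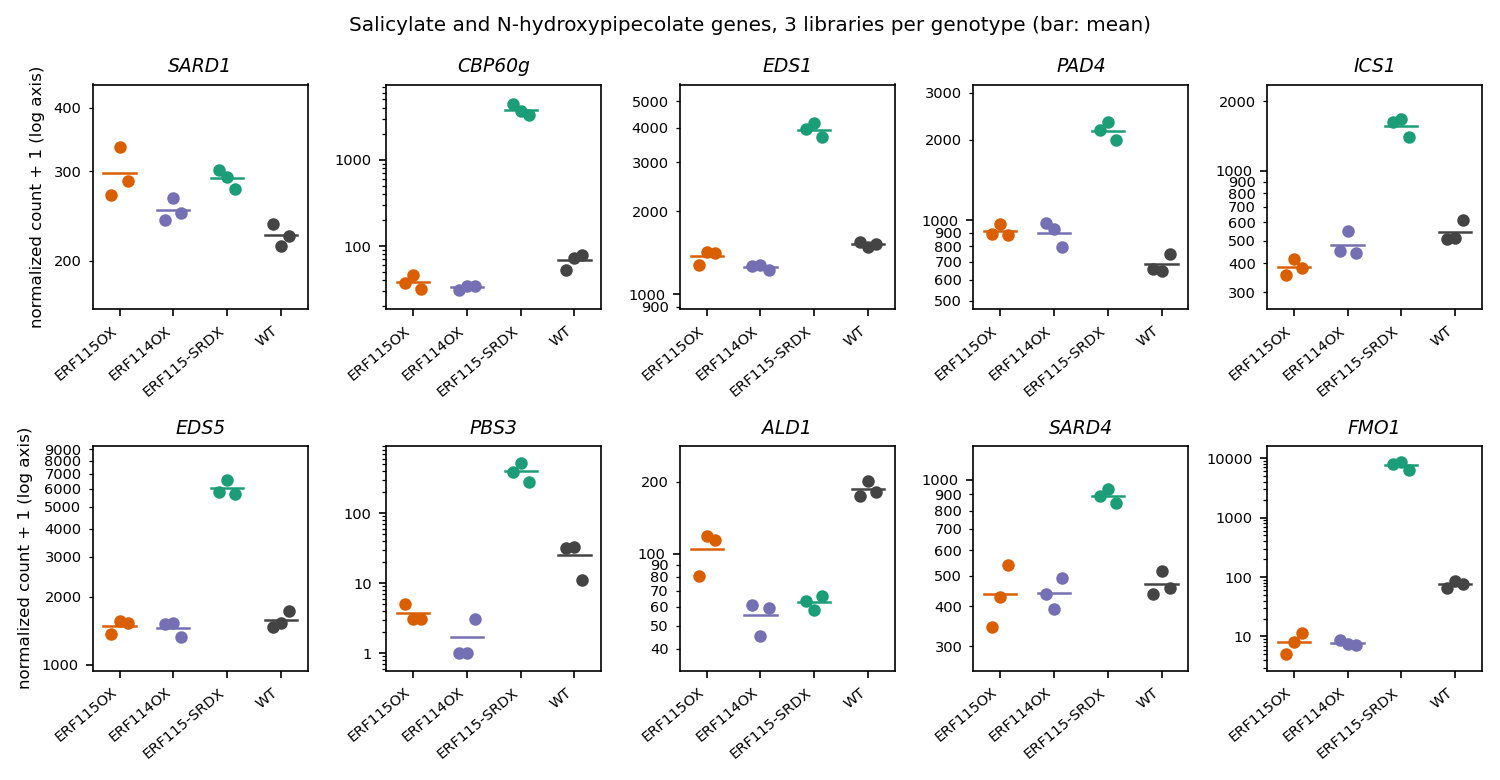
Normalized count plus 1 of each of the 10 genes in every library, on a log axis with its own range in each panel, for ERF115OX, ERF114OX, ERF115-SRDX and WT. Points are libraries and bars are means of 3 libraries. ERF115-SRDX lies above WT in 9 panels and below it in the panel of ALD1.

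CBP60g, a transcription factor that activates ICS1, showed the second largest rise among the members in ERF115-SRDX. Its libraries held 36.3, 45.8 and 31.0 normalized counts in ERF115OX, 30.0, 33.9 and 33.2 in ERF114OX, and 4460.1, 3668 and 3259 in ERF115-SRDX, against 52.5, 72.2 and 78.7 in WT. All 6 overexpressor libraries were below all 3 of WT, and the 3 of ERF115-SRDX were far above them. The log2 change was 5.79 ± 0.19 (SE) in ERF115-SRDX (limma adjusted p = 2.0e-10), -0.83 ± 0.19 in ERF115OX (0.0056) and -1.03 ± 0.19 in ERF114OX (0.0014). Among all tested genes, this rise in ERF115-SRDX ranked 97 of 23375 by size.

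SARD1, its relative that acts in parallel, moved little. It had 269, 333 and 286 normalized counts in ERF115OX, 240.1, 265 and 248 in ERF114OX and 301, 291 and 276 in ERF115-SRDX, against 235, 213 and 223 in WT. Libraries of all 3 lines lay above WT, with called rises of 0.40 ± 0.10 in ERF115OX (limma adjusted p = 0.0100) and 0.37 ± 0.10 in ERF115-SRDX (0.0078), and a difference of 0.17 ± 0.10 in ERF114OX that was not called (0.22). Under quantile normalization the ERF114OX difference was 0.31 and was called (adjusted p = 0.030). SARD1 overlaps the gene GIP2 (AT1G73790), which encodes a partner of the microtubule-nucleating complex, in the TAIR10.1 annotation. GIP2 had 254, 315 and 287 normalized counts in ERF115OX, 244, 257 and 243 in ERF114OX and 273, 263 and 240.2 in ERF115-SRDX, against 226, 211 and 222 in WT. The pair stood at similar values in each library, and GIP2 rose in ERF115OX by 0.37 ± 0.10 (limma adjusted p = 0.015). The library protocol marks strand, but whether the counting used it is not given in the sources used here, so the values of SARD1 are uncertain. The call of SARD1 in ERF115-SRDX was lost when the photosynthetic level was a covariate (0.40, limma adjusted p = 0.18) and without ERF115-SRDX 1 and 3 together (0.38, 0.084).

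EDS1 rose in ERF115-SRDX with little spread. It had 1274, 1425 and 1414 normalized counts in ERF115OX, 1270.2, 1275 and 1221 in ERF114OX and 3974, 4153 and 3701 in ERF115-SRDX, against 1541, 1487 and 1518 in WT. All overexpressor libraries were slightly below WT, and all ERF115-SRDX libraries lay well above it. The log2 change was 1.38 ± 0.06 in ERF115-SRDX (limma adjusted p = 1.7e-09) and -0.27 ± 0.06 in ERF114OX (0.0038). In ERF115OX it was -0.15 ± 0.06, which was not called by limma (0.077) and was called by limma after TMM scaling (0.048) and by edgeR on the recovered reads (0.046). A near-identical copy of EDS1, here called EDS1B (AT3G48080), lies next to it in TAIR10.1, and reads of the pair may have been split or dropped by the counting. EDS1B also overlaps AT3G48070, whose mean was 1019 normalized counts, so its values are uncertain. EDS1B had 185 to 292 in ERF115OX, 211 to 299 in ERF114OX and 310.1 to 390.5 in ERF115-SRDX, against 219 to 274 in WT, and rose in ERF115-SRDX by 0.55 ± 0.17 (limma adjusted p = 0.019). That call was lost without ERF115-SRDX 3 (limma adjusted p = 0.073), WT 1 (0.059) or WT 3 (0.064), without ERF115-SRDX 1 and 3 together (0.30), and with the photosynthetic level as a covariate (0.68).

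PAD4, which pairs with EDS1, was the member that rose in all 3 lines with no overlap with WT and passed in each. Its libraries had 886, 971 and 878 normalized counts in ERF115OX, 975, 929.7 and 796 in ERF114OX and 2181, 2325 and 1992 in ERF115-SRDX, against 658, 645 and 749 in WT. The log2 changes were 0.42 ± 0.09 (limma adjusted p = 0.0046), 0.39 ± 0.09 (0.0053) and 1.66 ± 0.09 (1.5e-08) in that order. The overexpressors thus carried less EDS1 or a level not called, and more PAD4, than WT.

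Among SA genes, ICS1 and EDS5 rose in ERF115-SRDX by 2.87-fold and 3.85-fold as ratios of means. ICS1, the first enzyme, had 356, 417 and 380.2 normalized counts in ERF115OX, 449, 551 and 439.9 in ERF114OX and 1623, 1677 and 1394 in ERF115-SRDX, against 507, 511 and 615 in WT. ERF115OX was below WT in all libraries, while ERF114OX overlapped it. The log2 change of ICS1 was 1.52 ± 0.11 in ERF115-SRDX (limma adjusted p = 2.3e-07) and -0.50 ± 0.11 in ERF115OX (0.0056), and -0.18 ± 0.11 in ERF114OX was not called (0.22).

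EDS5, the isochorismate carrier, had 1365, 1561 and 1524 normalized counts in ERF115OX, 1520.0, 1525 and 1325 in ERF114OX and 5833, 6602 and 5686 in ERF115-SRDX, against 1460.0, 1523 and 1726 in WT. Both overexpressors overlapped WT, with differences of -0.08 ± 0.09 in ERF115OX and -0.11 ± 0.09 in ERF114OX (limma adjusted p = 0.50 and 0.35). The rise in ERF115-SRDX was 1.94 ± 0.09 (limma adjusted p = 2.1e-09). EDS5 overlaps CFM4 (AT4G39040) in TAIR10.1, which fell in ERF115-SRDX, to a mean of 534 normalized counts against 897 in WT, and the counts of the pair are uncertain where they overlap.

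PBS3, the enzyme that joins isochorismate to glutamate, was near its floor in both overexpressors. It had 4.03, 2.03 and 2.07 normalized counts in ERF115OX, 0, 0 and 2.07 in ERF114OX and 387, 514 and 282 in ERF115-SRDX, against 31.1, 32.2 and 9.96 in WT. WT 3 was low beside the other WT libraries, yet above all 6 overexpressor libraries. ERF115OX held 8 reads of PBS3 and ERF114OX 2 reads in 3 libraries, against 75 in WT, and a floor of 3 reads is 2.90 to 3.18 normalized counts. The ratio to WT was 0.11 in ERF115OX (95% exact counting interval 0.046 to 0.23) and 0.028 in ERF114OX (0.0033 to 0.10), intervals that cover counting error only.

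Since PBS3 passed the minimum for testing through ERF115-SRDX, its p-values against WT are given here from the fit of all genes with no minimum. Its p-values between the overexpressors, given below, come from the fit with the minimum. In the fit with no minimum limma called PBS3 in all 3 lines. The log2 changes were 4.08 ± 0.54 in ERF115-SRDX (adjusted p = 5.0e-05), -2.65 ± 0.54 in ERF115OX (0.0041) and -3.96 ± 0.54 in ERF114OX (0.00030). At so few reads the size of the falls depended on the pseudocount and the tool. Over the other settings the change ranged from -3.18 to -1.97 in ERF115OX and from -5.17 to -2.50 in ERF114OX.

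**Figure D2:**
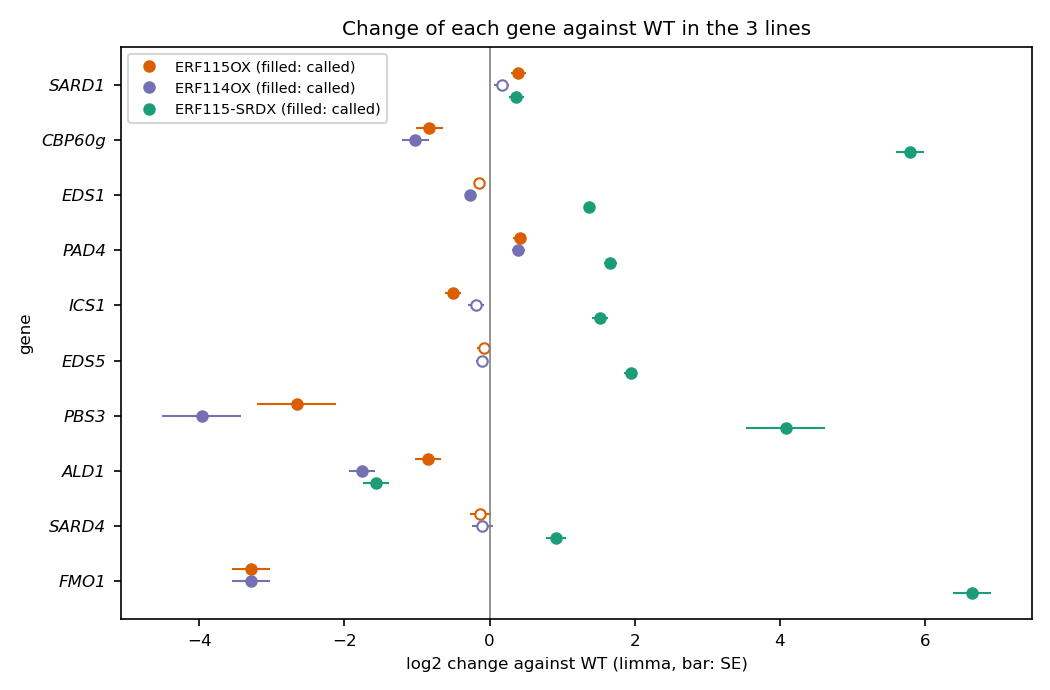
Log2 change against WT of each gene in ERF115OX, ERF114OX and ERF115-SRDX, from limma, with SE bars. Filled points were called at an adjusted p under 0.05. In ERF115-SRDX, FMO1 (6.65), CBP60g (5.79) and PBS3 (4.08) lie farthest to the right, and ALD1 is left of 0 in all 3 lines.

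The 3 genes of NHP synthesis did not move together. FMO1, which makes NHP from pipecolate, had 4.03, 7.12 and 10.3 normalized counts in ERF115OX, 7.75, 6.35 and 6.22 in ERF114OX and 8108, 8486 and 6287 in ERF115-SRDX, against 64.2, 83.9 and 76.7 in WT. ERF115-SRDX lay above WT and both overexpressors lay below it, with overlap between the overexpressors alone. Its log2 change was 6.65 ± 0.26 in ERF115-SRDX (limma adjusted p = 7.9e-10), -3.29 ± 0.26 in ERF115OX (7.9e-06) and -3.28 ± 0.26 in ERF114OX (6.2e-06). As ratios of means, FMO1 was 102-fold higher in ERF115-SRDX, 10.5-fold lower in ERF115OX and 11.1-fold lower in ERF114OX than in WT. Among 23375 genes, the rise ranked 57 by size and the falls ranked 78 in ERF115OX and 49 in ERF114OX.

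ALD1, which takes the amino group from lysine at the start of the route, fell in all 3 lines. It had 79.6, 118 and 113 normalized counts in ERF115OX, 60.03, 44.5 and 58.1 in ERF114OX and 62.5, 57.4 and 65.2 in ERF115-SRDX, against 173, 199.98 and 180.3 in WT. No library of any line reached the lowest of WT. The log2 changes were -0.85 ± 0.18 in ERF115OX (limma adjusted p = 0.0041), -1.76 ± 0.18 in ERF114OX (3.7e-05) and -1.56 ± 0.18 in ERF115-SRDX (1.2e-05). The first and last enzymes of the route therefore changed in opposite directions in ERF115-SRDX and in the same direction in both overexpressors.

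SARD4, the reductase between them, had 342, 428 and 538 normalized counts in ERF115OX, 438, 391 and 491 in ERF114OX and 885, 933 and 846 in ERF115-SRDX, against 437, 517 and 455 in WT. Overexpressors overlapped WT and ERF115-SRDX did not. The rise in ERF115-SRDX was 0.92 ± 0.14 (limma adjusted p = 0.00013), and differences of -0.13 ± 0.14 in ERF115OX and -0.10 ± 0.14 in ERF114OX were not called (0.52 and 0.62). SARD4 overlaps AT5G52800 in TAIR10.1, which rose by 0.55 ± 0.14 in ERF115-SRDX (limma adjusted p = 0.0058), at means of 117 against 79.8 in WT, with the same uncertainty.

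In the direct comparison of the overexpressors, 1 member was higher and none lower in ERF115OX than in ERF114OX by limma, where 4.77% of all genes were higher and 2.13% lower. That member was ALD1, at 103 ± 20.8 normalized counts in ERF115OX and 54.2 ± 8.48 in ERF114OX (SD, n = 3 each), a log2 difference of 0.91 ± 0.18 (limma adjusted p = 0.011). The call was lost without ERF115OX 2 (0.81, adjusted p = 0.063) and in a fit of these groups alone (0.064). Without adjustment 3 members were higher and 1 lower. Of these, PBS3 (1.31 ± 0.54, limma adjusted p = 0.18), SARD1 (0.23 ± 0.10, 0.20) and ICS1 (-0.32 ± 0.11, 0.12) did not pass after adjustment. No share of all genes before adjustment is given, here or below, so counts made without adjustment stand alone. By edgeR and DESeq2 also none was lower, where they called 390 and 818 of all 23375 genes lower. Without overlap, 2 members lay above and 1 below ERF114OX, as 14.8% and 10.8% of all genes did. The levels of FMO1 were 7.16 ± 3.15 in ERF115OX and 6.77 ± 0.84 in ERF114OX, a difference of -0.002 ± 0.26.

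Against ERF115-SRDX, 1 member was higher and 8 lower in ERF115OX, where 29.6% of all genes were higher and 26.4% lower by limma. In ERF114OX none was higher, also without adjustment and by edgeR and DESeq2, and 8 were lower than in ERF115-SRDX, where 30.0% of all genes were higher and 26.0% lower by limma. Without overlap, ERF115OX lay above in 1 and below in 8 members (33.3% and 30.0% of all genes), and ERF114OX above in 0 and below in 9 (33.6% and 29.7%). PBS3, which had passed the minimum through ERF115-SRDX, is in each of these counts of lower members. FMO1 was lower by 9.93 ± 0.26 on the log2 scale in each (limma adjusted p = 2.5e-11 in ERF115OX and 2.1e-11 in ERF114OX). The log2 difference of PBS3 was -6.73 ± 0.54 in ERF115OX and -8.04 ± 0.54 in ERF114OX, and that of CBP60g was -6.62 ± 0.19 in ERF115OX and -6.82 ± 0.19 in ERF114OX. The size for PBS3 in ERF114OX ranged from -9.20 to -6.39 over other pseudocounts and tools. ALD1 was the exception, 0.72 ± 0.18 higher in ERF115OX than in ERF115-SRDX (limma adjusted p = 0.0045), with a difference of -0.19 ± 0.18 between ERF114OX and ERF115-SRDX that was not called (0.38). SARD1 was called in neither comparison (0.03 ± 0.10 and -0.21 ± 0.10).

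The order of levels over the genotypes followed a few forms. FMO1, CBP60g and PBS3 were highest in ERF115-SRDX, then WT, then the overexpressors, between which limma called no difference (adjusted p = 0.998, 0.59 and 0.18). For EDS5 and SARD4, ERF115-SRDX stood alone above 3 genotypes between which limma called no difference. PAD4 had ERF115-SRDX first, the overexpressors next and WT last. ALD1 had WT first, ERF115OX next, and ERF114OX and ERF115-SRDX last, with no difference called between the last pair. EDS1 had ERF115-SRDX first, then WT, ERF115OX and ERF114OX, where neither step next to ERF115OX was called and the step from WT to ERF114OX was. ICS1 had ERF115-SRDX first, then WT, ERF114OX and ERF115OX, and of these 3 limma called the difference between ERF115OX and WT alone. SARD1 had ERF115OX and ERF115-SRDX first, then ERF114OX and WT, and its calls were those of ERF115OX and ERF115-SRDX against WT.

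The photosynthetic level moved with genotype, and its part in these results was not tested. ERF115-SRDX 2 had a photosynthetic mean log2 value of 12.76, against 7.94 and 8.31 in the other libraries of that line. Its FMO1 was 8486 against 8108 and 6287, its CBP60g 3668 against 4460.1 and 3259, and its ICS1 1677 against 1623 and 1394 normalized counts. All 18 photosynthetic genes fell in ERF115-SRDX against WT by limma (median log2 change -5.35), where 26.6% of all genes fell. By limma 0 of 18 were called in either overexpressor (medians -1.15 in ERF115OX and -1.39 in ERF114OX). Of all genes, 16.4% rose and 15.7% fell in ERF115OX, and 17.5% rose and 19.6% fell in ERF114OX. The mean log2 value was nonetheless at most 14.16 in ERF115OX and 14.29 in ERF114OX, below all WT libraries (at least 14.51). With that level as a covariate, 8 members, PBS3 among them, rose and 1 fell in ERF115-SRDX by limma, where 13.7% of all genes rose and 12.8% fell. In that fit the change of ICS1 was 1.74, of EDS1 1.46 and of ALD1 -1.87. With ERF115-SRDX 2 as the sole library of its line, FMO1 was 6.81, CBP60g 5.76 and ALD1 -1.66 against WT. That fit was chosen after the data were seen, and it takes the spread of the lone library from the other genotypes.

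**Figure D3:**
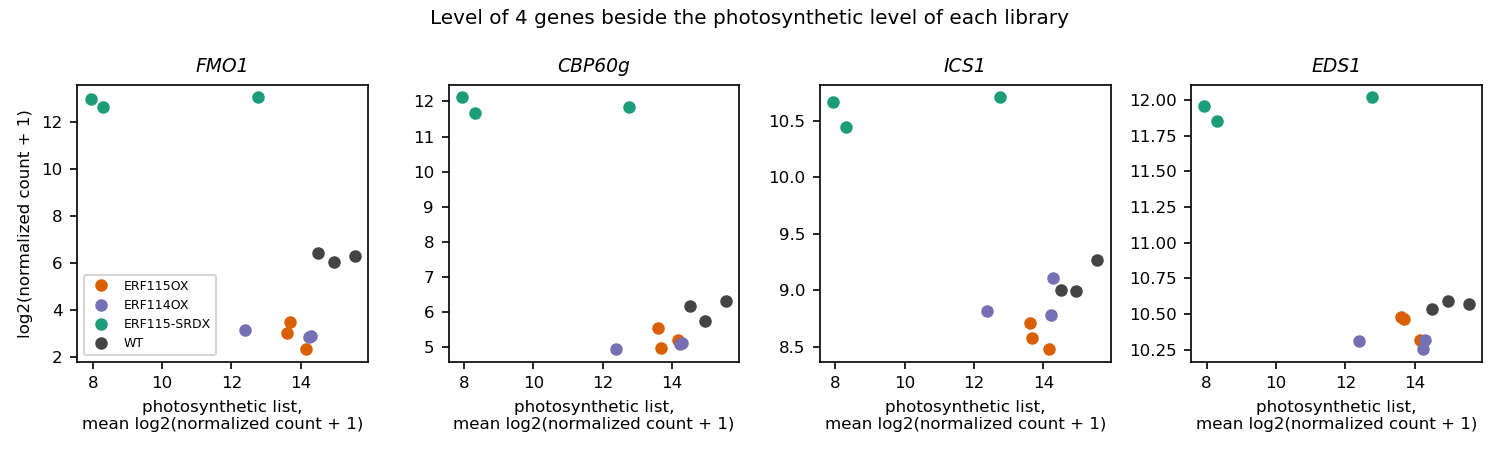
Log2 of the normalized count plus 1 of FMO1, CBP60g, ICS1 and EDS1 in each of the 12 libraries, against the mean log2 value of 18 photosynthetic genes in that library. In each panel the ERF115-SRDX library at 12.76 on the horizontal axis lies within or just above the range of the libraries at 7.94 and 8.31.

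Further genes of the pathway were followed as 4 lists, taken by identifier and, like the members, chosen with earlier results of these data known. Their counts stand beside the shares of all tested genes that rose and fell against WT, which were 23.4% and 26.6% in ERF115-SRDX, 16.4% and 15.7% in ERF115OX, and 17.5% and 19.6% in ERF114OX. Of 16 upstream regulators, 9 rose and 3 fell in ERF115-SRDX against WT by limma (median log2 change 0.31), 2 rose and 4 fell in ERF115OX (-0.004), and 0 rose and 4 fell in ERF114OX (-0.07). Before adjustment 1 regulator was higher in ERF114OX, edgeR and DESeq2 called 0 higher there, quantile normalization called 1 and the photosynthetic covariate 2. In the same order, these 4 settings called 3330, 4092, 5136 and 3953 of all 23375 genes higher. WRKY28 was called higher under quantile normalization (0.95, limma adjusted p = 0.021) and with the covariate (0.94, 0.023). The 4 that fell became 2 without ERF114OX 2, WT 1 or WT 3, where 3672, 3571 and 3356 of all genes fell. SAG101, the other partner of EDS1, had 1161, 1222 and 1264 normalized counts in ERF115-SRDX, against 348, 284 and 338 in WT, and its means were 230.5 ± 29.7 in ERF115OX and 236 ± 4.73 in ERF114OX. It rose by 1.91 ± 0.10 in ERF115-SRDX (limma adjusted p = 1.6e-08) and fell by 0.49 ± 0.10 in ERF115OX (0.0043) and by 0.45 ± 0.10 in ERF114OX (0.0059). The genes in the next sentences, up to TGA4, were chosen after their values were seen. All 3 helper receptors of the ADR1 family, which act with EDS1 and PAD4, rose in ERF115-SRDX, ADR1 by 1.14 ± 0.06, ADR1-L1 by 0.65 ± 0.07 and ADR1-L2 by 1.02 ± 0.06. Of the helper receptors that act with SAG101, NRG1.1 fell by 0.345 ± 0.10 in ERF115-SRDX (limma adjusted p = 0.014) and by 0.341 ± 0.10 in ERF114OX (0.022), and NRG1.2 was called in no line. ADR1-L1, CAMTA3, CBP60a and TGA4 overlap other genes in TAIR10.1, so their values are uncertain in the same way as those of SARD1.

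CAMTA3, a calmodulin-binding repressor of SA genes, fell in ERF115OX by 0.40 ± 0.06 and in ERF114OX by 0.59 ± 0.06 and was not called in ERF115-SRDX. Also in this list, CAMTA2 averaged 3358 ± 60.9 normalized counts in ERF115-SRDX against 2612 ± 107 in WT. CAMTA1 averaged 2785 ± 41.4 against 2647 ± 74.4, and CBP60a 1521 ± 25.8 against 1279 ± 89.2. TGA1 and TGA4, bZIP factors that activate SARD1 and CBP60g, fell in ERF115-SRDX by 0.62 ± 0.09 and 0.49 ± 0.07. NDR1, a membrane protein needed by another class of immune receptors, rose to 312 ± 25.5 normalized counts in ERF115-SRDX, against 95.03 ± 22.4 in WT (limma adjusted p = 4.3e-05). WRKY28, an activator of ICS1, was at 125, 67.1 and 65.1 in ERF115OX, against 33.0, 32.2 and 33.9 in WT, and rose there by 1.28 ± 0.33 (limma adjusted p = 0.011), while ICS1 fell in that line. WRKY46, another activator of SA genes, rose in ERF115-SRDX (54.4 ± 13.9 normalized counts against 18.6 ± 7.24 in WT, limma adjusted p = 0.015), a call lost without ERF115-SRDX 3 (0.058) or WT 3 (0.067), without ERF115-SRDX 1 and 3 together (0.25), and with the photosynthetic covariate (0.79).

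Of 6 other genes of SA synthesis, 4 rose and 1 fell in ERF115-SRDX (median 0.44), 2 rose and 1 fell in ERF115OX (0.16), and 3 rose and 1 fell in ERF114OX (0.26), beside 23.4% and 26.6%, 16.4% and 15.7%, and 17.5% and 19.6% of all genes. PAL3 in ERF114OX (-2.30 ± 1.1, limma adjusted p = 0.12) was a further gene called lower in edgeR (0.037), in the fit of ERF114OX and WT alone (0.024), and without ERF115-SRDX 2 (0.020), 3 (0.036) or 1 and 3 together (0.0079). ICS2, the second isochorismate synthase, had 348, 378 and 411 normalized counts in ERF115OX, 528, 359 and 354 in ERF114OX and 2778, 3164 and 3213 in ERF115-SRDX, against 781, 940.4 and 904 in WT. Overexpressors were all below WT and ERF115-SRDX all above, the same order as FMO1. Its changes were 1.80 ± 0.14 in ERF115-SRDX (limma adjusted p = 3.3e-07), -1.204 ± 0.14 in ERF115OX (0.00010) and -1.10 ± 0.14 in ERF114OX (0.00014). Phenylalanine ammonia-lyases open the phenylpropanoid route, a minor source of SA. PAL1 rose in all 3 lines, to 45049 ± 5134 in ERF115-SRDX, 38635 ± 4055 in ERF115OX and 36869 ± 1121 in ERF114OX, against 27650.3 ± 1829 in WT. PAL4 rose in ERF115-SRDX by 0.58 ± 0.09.

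PAL3, another lyase, fell in ERF115-SRDX, where the libraries had 6.05, 62.7 and 0 normalized counts, against 337, 216 and 347 in WT (-5.26 ± 1.1, limma adjusted p = 0.0015). Within ERF115-SRDX it was highest in library 2, and within ERF114OX it was lowest, at 19.4, in library 1, the libraries that stood apart in photosynthetic level. With the photosynthetic covariate it was not called (-0.09, limma adjusted p = 0.96), and with ERF115-SRDX 2 as the sole library of its line the change was -2.21 (0.042).

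Genes that modify or remove SA changed in both directions. Of 9 such genes 8 were tested, and BSMT1, an SA methyltransferase, had at most 4.15 normalized counts in any library. In ERF115-SRDX 2 rose and 4 fell (median -0.65), in ERF115OX 2 rose and 1 fell (0.23), and in ERF114OX 1 rose and 3 fell (-0.14), beside shares of all genes of 23.4% and 26.6%, 16.4% and 15.7%, and 17.5% and 19.6%. DMR6, the SA 5-hydroxylase, had 1130 to 1237 normalized counts in ERF115-SRDX, against 3351 to 3711 in WT, and fell by 1.55 ± 0.07 (limma adjusted p = 2.1e-09). DLO1, the SA 3-hydroxylase, had 58.4, 81.5 and 104.8 in ERF115-SRDX, against 283, 221 and 269 in WT, and fell by 1.68 ± 0.19 (limma adjusted p = 1.2e-05). Both hydroxylases were thus lower in the line in which ICS1, EDS5 and PBS3 were higher, and neither was called in an overexpressor by limma, except DLO1 in ERF115OX when that line and WT were fitted alone (0.41, adjusted p = 0.048).

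UGT76D1, a glucosyltransferase that acts on hydroxylated SA, rose to 1406 ± 99.5 in ERF115-SRDX, against 312 ± 66.2 in WT (2.19 ± 0.15, limma adjusted p = 1.1e-07). In ERF114OX it fell by 0.54 ± 0.15 (limma adjusted p = 0.014), a call lost under quantile normalization and without ERF114OX 3 or WT 2 (highest 0.059). MES1, a methylesterase that can release SA from its methyl ester, rose by 1.68 ± 0.18 in ERF115-SRDX (limma adjusted p = 5.2e-06). MES9 and UGT74F1, also in this list and named after their values were seen, went the other way. In ERF115-SRDX they averaged 498 ± 28.1 and 80.7 ± 15.5 normalized counts, against 1326 ± 18.4 and 178 ± 18.7 in WT.

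Of 10 genes for SA receptors and response 6 were tested, and 5 rose and none fell in ERF115-SRDX (median 0.54), where 23.4% of all genes rose and 26.6% fell. In ERF115OX none was called in either direction by limma, edgeR or DESeq2 (median 0.06), where 16.4% of all genes rose and 15.7% fell by limma. There 1 was higher before adjustment, and NIMIN2 was called higher by limma under quantile normalization (0.39, adjusted p = 0.035). In ERF114OX 1 fell and none rose by limma (0.02), where 19.6% of all genes fell and 17.5% rose. With the photosynthetic covariate 3 rose in ERF115-SRDX, where 13.7% of all genes rose. Without ERF114OX 2 or WT 3, 1 rose in ERF114OX, where 2935 and 3129 of all 23375 genes rose. WRKY70, an SA-responsive transcription factor, had 1655, 1435 and 1702 normalized counts in ERF115-SRDX, against 328, 408 and 471 in WT (2.00 ± 0.14, limma adjusted p = 1.2e-07). NIMIN2, which binds the receptor NPR1, rose by 1.197 ± 0.12 and the receptor gene NPR3 by 0.76 ± 0.07. WRKY54 fell in ERF114OX by 0.54 ± 0.12 (limma adjusted p = 0.0045). PR1, the best known SA-responsive gene, had no read in any of the 12 libraries, at a floor of 2.90 to 3.18 normalized counts for 3 reads. PR2 had 8.06, 23.0 and 65.2 normalized counts in the ERF115-SRDX libraries and no read in the other 9, below the minimum for testing. NIMIN1 and PR5 were also below it.

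**Figure D4:**
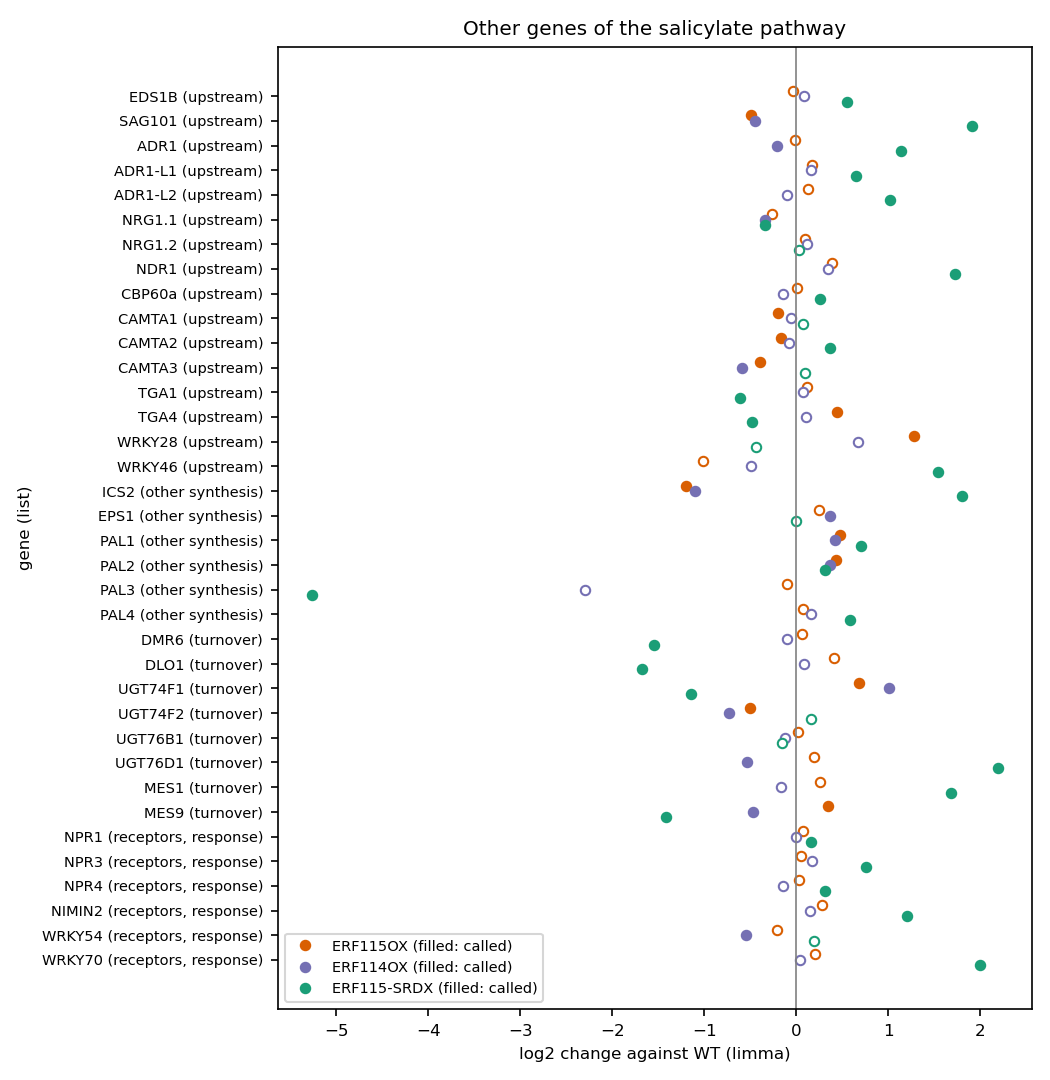
Log2 change against WT, from limma, of the 36 tested genes of the 4 further lists in ERF115OX, ERF114OX and ERF115-SRDX. Filled points were called at an adjusted p under 0.05. Genes of each list lie on both sides of 0, with PAL3 at -5.26 and UGT76D1 at 2.19 as the ends of the range in ERF115-SRDX.

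The genes whose pattern over the 12 libraries was most like that of a member were found by Pearson's r of log2 values among all tested genes that are not members. For FMO1 they were ERF2, an ethylene response factor (r = 0.996, Spearman's rho = 0.944), the thalianol synthase THAS1 (0.995, 0.979), the homeodomain factor BEL1 (0.995, 0.958), AT3G11720 (0.994, 0.958) and AT4G22530 (0.994, 0.867). ERF2 averaged 1537 normalized counts in ERF115-SRDX, 24.2 in ERF115OX and 18.6 in ERF114OX, against 83.2 in WT, so it shared the low level of the overexpressors as well as the high level of ERF115-SRDX. For ICS1 the closest were FATB, an acyl-carrier-protein thioesterase (0.993, 0.965), and PERK9, a receptor-like kinase (0.992, 0.965), followed by AT3G43960, AT1G15625 and GLR1.3. For EDS1 they were GLP4, a germin-like protein (0.999, 0.958), AT5G22145 (0.998, 0.958) and ALDH2C4 (0.998, 0.937), followed by AT1G18975 and AT5G22140. The 12 libraries fall into 4 genotypes, so these values describe likeness and carry no test.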

How the data were processed

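RNA was sequenced from roots of 12 libraries, 3 for each of 4 genotypes, grouped by title. The authors deposited normalized counts (a signal per gene, read counts divided by a DESeq2 size factor per library), and the submitters' processing notes name DESeq2, featureCounts, Subread 2.0.1, SAMtools 1.11, HISAT2 2.2.1 and Trimmomatic 0.39. The genome build, annotation and strand setting were not given in the sources used here. Whole reads were recovered from the steps between values: 1 of 316348 values above 0 was not whole within 1e-06. Depth was 47242114 to 48343410 reads, and intervals cover counting error only.

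The 23375 of 37884 genes whose mean reached 10 normalized counts were tested in R 4.3.3 with limma 3.58.1 (trend) on log2(value + 1), all 4 genotypes in 1 fit, two-sided, with Benjamini-Hochberg adjustment over all tested genes and a threshold of 0.05. Fold changes on this scale understate changes of low genes. A value after ± is an SE beside a log2 change and an SD (n = 3) beside a level. Levels are not per length, so they are not compared between genes. The fit was checked on simulated data. Alternatives were other pseudocounts, filters, scalings and designs, a photosynthetic covariate, libraries left out, and count models on the recovered reads (DESeq2 1.42.0, edgeR 4.0.16).

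The members and lists were chosen with earlier results of these data known. Named by rule were all members, the 4 called genes of each further list with the largest change against WT, EDS1B, ICS2, SAG101, and the 5 genes most like FMO1, ICS1 and EDS1. Genes of the ADR1, NRG1, CAMTA and TGA families, CBP60a, MES9 and UGT74F1 were named after their values were seen. BSMT1, PR1, PR2, PR5 and NIMIN1 were named as below the minimum for testing. Names and overlaps came from TAIR10.1, in which all 37884 identifiers were found.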

Additional observations from a re-analysis of the deposited data

How the results depend on the processing

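Depth limits PBS3, PR2 and FMO1 in the overexpressors, where few reads were counted. The number of members higher in ERF114OX than in WT became 2 under quantile normalization. There 5136 of all 23375 genes were higher, against 4093 in the main fit. The number higher in ERF115OX than in ERF114OX became 0 when those groups were fitted alone, and lay between 0 and 1 over fits without each replicate. Of all genes, 739 were higher when those groups were fitted alone, against 1116 in the main fit. Without each replicate it was 465 to 1463. The causes were not tested. All other counts of members stayed within 1.5 times their value in every alternative run. Libraries with the same replicate number were not more alike than others. Over 18 same-numbered pairs the median correlation of deviations was -0.090 (-0.283 to 0.440), with 4 over 0.1. Over 36 pairs with different numbers it was 0.057 (-0.557 to 0.397), with 14 over 0.1. The extremes, 0.440 and -0.557, were ERF114OX 1 with ERF115-SRDX 1 and with ERF115-SRDX 2. Whether libraries shared a batch was not tested. With the replicate number as a block, 9 members rose and 1 fell in ERF115-SRDX against WT, where 5398 of all 23375 genes rose and 6164 fell. No call of a member changed in that fit.

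Directions turned only for differences that were not called. Between ERF115OX and ERF114OX, FMO1 became 0.0137 with a pseudocount of 4, 0.0119 with TMM scaling, 0.0832 in edgeR, 0.0692 in DESeq2 and 0.0855 without ERF114OX 1 and ERF115-SRDX 2. SARD4 became 0.00505 in edgeR and PAD4 -0.00257 under quantile normalization. Quantile normalization also gave 0.0154 for SARD4 in ERF114OX against WT, -0.0337 for SARD1 in ERF115OX against ERF115-SRDX, and -0.00199 for PAL4 and 0.0513 for EDS1B in ERF115OX against WT. The photosynthetic covariate gave 0.0351 for ALD1 in ERF114OX against ERF115-SRDX, 1.05 for PAL3 in ERF115OX, 0.641 for WRKY28 in ERF115-SRDX, and -0.0299 for WRKY70 and -0.00778 for EDS1B in ERF114OX, each against WT. WRKY70 was -0.00460 in edgeR. Without ERF114OX 1 and ERF115-SRDX 2, MES1 was 0.0745, DLO1 -0.0243 and WRKY70 -0.0367 in ERF114OX against WT, and without ERF115-SRDX 1 and 3 WRKY28 was 0.22 in ERF115-SRDX.

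Without each replicate in turn, the difference between ERF115OX and ERF114OX ranged from -0.278 to 0.308 for FMO1, -0.0637 to 0.0827 for PAD4, -0.0401 to 0.0854 for EDS5 and -0.193 to 0.133 for SARD4. For ERF115OX against WT it ranged from -0.291 to 0.0344 for SARD4, -0.320 to 0.0217 for PAL3 and -0.203 to 0.123 for EDS1B. For ERF114OX against WT it ranged from -0.307 to 0.0745 for MES1, -0.0243 to 0.199 for DLO1, -0.0985 to 0.163 for WRKY70 and -0.0423 to 0.209 for EDS1B. SARD1 ranged from -0.0602 to 0.0944 between ERF115OX and ERF115-SRDX.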
